A study of Mus musculus with 12 samples.

Results

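The genes described here encode the machinery of hepatic fatty acid oxidation and ketone body formation, 32 in number out of 36144 gene symbols in the deposited expression table. They were taken from a list of symbols and grouped by role into 5 genes of entry into the mitochondrion, 15 of mitochondrial oxidation, 6 of peroxisomal oxidation, 2 of ketone metabolism, and 4 regulators and linked enzymes. All 32 were found in the table, and all 32 passed the filter on low values (1 TPM or more in 3 or more of the 12 libraries), as did 11544 symbols overall. TPM is a transcript level corrected for transcript length and scaled to the same total in every library. Primary hepatocytes from C57/Bl6J mouse liver were cultured without serum for 16 h, and polyadenylated RNA was sequenced from 3 libraries in each of 4 groups. The Mock group received no added agent. The FD group received 10 µM forskolin, an adenylate cyclase activator that increases cAMP, together with 1 µM of the glucocorticoid dexamethasone, both for 5 h before lysis. The FDI group had in addition 100 nM insulin, started 1 h before forskolin and dexamethasone. The FDMn group had in addition 6 µM manganese, given as MnCl2 for the whole 16 h. FDI and FDMn thus both contained forskolin and dexamethasone, manganese was present far longer than insulin, and no group received insulin or manganese by itself. The labels name 1 mouse as the source and leave it unsaid whether replicates were prepared separately. The p-values thus measure the spread between these libraries, which may be technical.

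Fatty acids enter hepatic oxidation as acyl-CoA, are passed across the inner mitochondrial membrane by the carnitine shuttle, and are shortened in repeated cycles of dehydrogenation, hydration, a further dehydrogenation and thiolysis. Peroxisomes run a parallel pathway for very long and branched chains, and the acetyl-CoA that the liver does not burn is turned into ketone bodies for other organs. In fasting, glucagon acting through cAMP, glucocorticoids and the lipid sensor PPAR alpha raise the expression of many of these genes, and insulin opposes that programme.

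Between 10900 and 11161 symbols reached 1 TPM in each library, and TPM holds no record of read number, so the depth is unknown. The hepatocyte markers were all expressed. Their summed level ranged over 31251 to 32321 TPM among Mock libraries and 30325 to 39799.9 among FD. Among FDI it was 29746 to 30110.3 and among FDMn 34300.1 to 35129.5. Albumin made up most of it, with means of 25805, 28598, 22959 and 27335 TPM in the same order. Other markers differed in course: Cps1 averaged 3.76, 207, 34.8 and 79.7 TPM, Hnf4a 52.1, 205, 178 and 184, and Cyp2e1 259.5, 263, 257 and 233. Of the 9 Kupffer cell markers, 5, Clec4f and Timd4 among them, never reached 1 TPM, and the sums of the list in those groups were 3.65 to 5.03, 4.53 to 5.72, 4.70 to 5.81 and 6.67 to 7.94 TPM. Of the 8 endothelial markers 2 never reached 1 TPM, and this list summed to 20.1 to 21.6, 22.3 to 29.7, 21.5 to 25.8 and 29.8 to 33.0 TPM in the same order of groups. The 6 cholangiocyte markers summed to 1082 to 1126, 732 to 803, 762 to 809 and 1412 to 1606 TPM. Most of that sum came from Spp1 (osteopontin, not specific to these cells), with a mean of 681 TPM in FD and 1418 in FDMn. Sox9 averaged 34.9 TPM in Mock, 17.0 in FD, 40.6 in FDI and 25.2 in FDMn. Cldn4 averaged 176, 61.3, 105 and 51.7 TPM in the same order, while Epcam and Krt7 never reached 1 TPM. The 8 stellate cell and fibroblast markers summed to at most 5.74 TPM in any library, the 6 lymphocyte markers to at most 0.311 and the 4 adipocyte markers to at most 1.14. The part of these lists in the results on manganese was not tested, and in bulk RNA fewer cells of a type and less RNA per cell cannot be told apart.

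Forskolin and dexamethasone raised Ppara, Cpt1a, Pdk4 and a few enzymes of this pathway, Pdk4 was lower where insulin was also given, and genes of every class but the ketone pair were lower where manganese was also given. In FD against Mock, 8 of 32 genes rose, namely Cpt1a, Acsl1, Echs1, Decr2, Eci2, Ppara, Pdk4 and Acot1. Acot1 passed the filter on low values only through treated libraries, so its difference was built into the choice, and 7 rose without it. Another 4, Hadh, Acaa2, Acat1 and Vnn1, fell. That is 37.5% of the 32, against 41.1% of all genes tested (11.2% higher and 29.9% lower). In FDI against FD none rose and 2 fell, Decr2 and Pdk4, or 6.25% against a background of 14.5% (10.2% higher and 4.35% lower). In FDMn against FD, 12 fell and 1, Acaa2, rose, or 40.6% against a background of 15.1% (7.22% higher and 7.90% lower). The 12 were Cpt1a, Acadsb, Hadh, Hadha, Decr1, Etfdh, Acaa1b, Hsd17b4, Decr2, Eci2, Pdk4 and Vnn1. In the direct comparison of FDMn with FDI, 8 were lower with manganese and 1, Cpt2, was higher, or 28.1% against a background of 17.6% (5.68% higher and 11.9% lower). Calls are from limma at a Benjamini-Hochberg adjusted p under 0.05 over all genes tested.

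**Figure D1:**
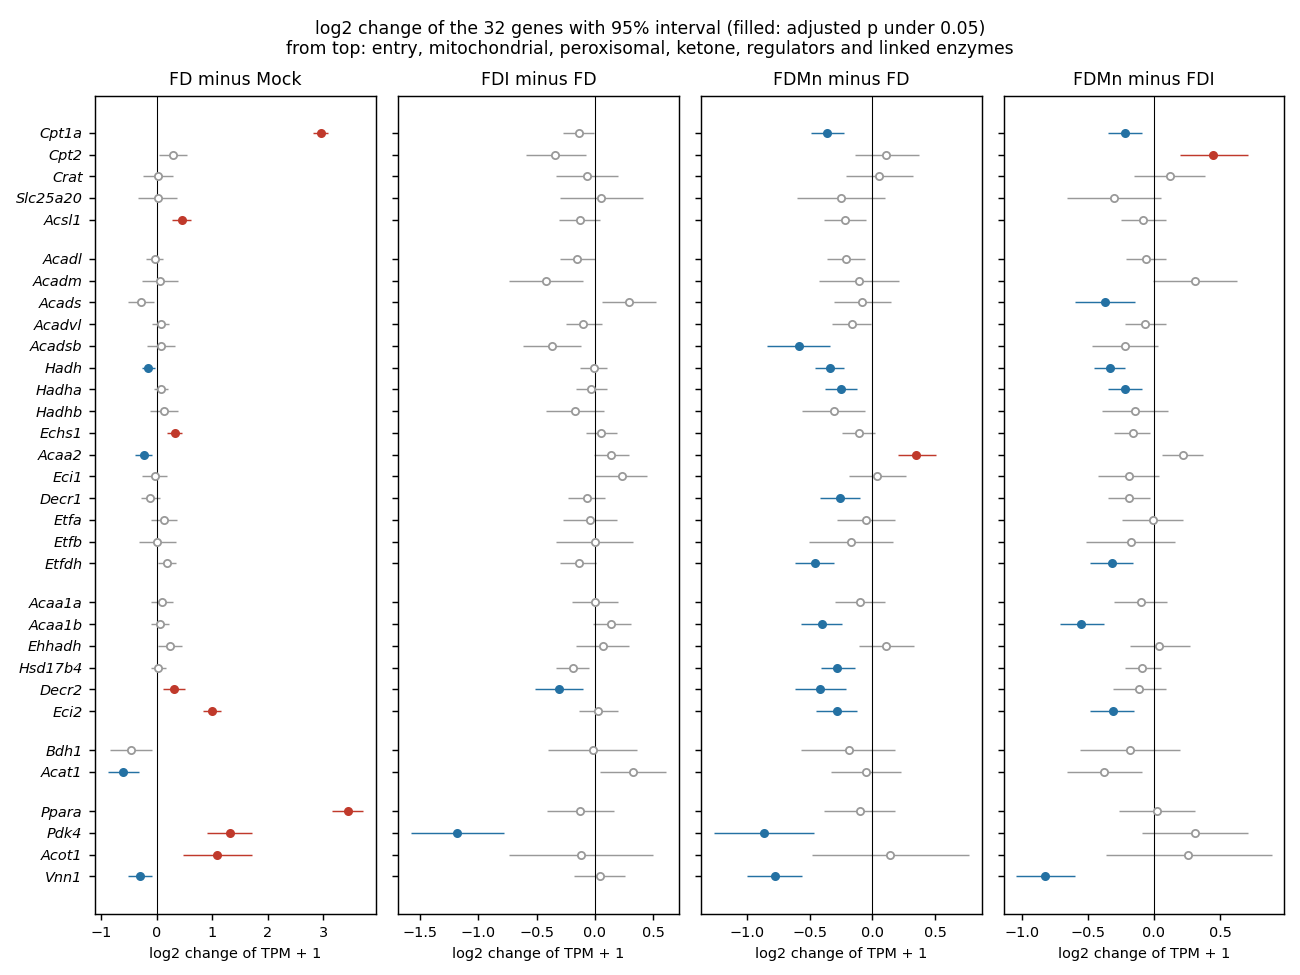
Each point is the log2 change of TPM + 1 of 1 gene in 1 of the 4 comparisons, with its 95% interval; filled points passed the test, red higher and blue lower, and open grey points did not. The third panel holds 12 filled blue points, and the largest changes in the first panel are Ppara at 3.44 and Cpt1a at 2.95.

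The sizes of these changes were unequal. The median log2 change of the 32 was 0.07 in FD against Mock, −0.05 in FDI against FD, −0.20 in FDMn against FD and −0.15 in FDMn against FDI, beside −0.15, 0.04, 0.00 and −0.04 over all genes tested. By overlap of replicates alone, 10 of the 32 lay above and 4 below Mock in FD, where 48.0% of all genes tested did not overlap (13.3% above and 34.7% below). The 10 include Acot1, whose difference was built into the choice. With insulin 2 lay above and 8 below FD, against a background of 30.8% (19.6% and 11.2%). With manganese 2 lay above and 15 below FD, against 33.0% (16.6% and 16.4%). Set against FDI, the FDMn libraries lay above in 3 genes and below in 13, against 40.5% (15.0% and 25.6%). Of the 12 genes that fell with manganese, 4 had risen in FD against Mock (Cpt1a, Decr2, Eci2 and Pdk4), 6 had not passed that test and 2 had fallen in it (Hadh and Vnn1). FD libraries enter both comparisons, so the values below are given side by side and not correlated. The count of 12 was 7 without FDMn replicate 1.

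The FD against Mock counts depended on how libraries were scaled. With TPM as deposited the median gene was 0.15 lower on the log2 scale in FD, and with median-of-ratios scaling it was at 0.00. Under that scaling 17 members were higher and 1, Acat1, was lower, and among all genes 2059 were higher and 1972 lower in place of 1296 and 3447. Under quantile normalization 12 members were higher and 1 was lower. Acot1, whose difference was built into the choice, is among the higher members under both scalings. By class, the mitochondrial genes higher and lower in FD numbered 5 and 0 with median-of-ratios scaling and 3 and 0 with quantile normalization. The peroxisomal genes numbered 6 and 0, and 3 and 0, and the entry genes 3 and 0 under both. In FDI against FD, 6 members were lower under either scaling. The 12 lower genes in FDMn against FD stayed at a count of 12 under both scalings.

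Among the regulators, Ppara, the nuclear receptor that senses fatty acids and drives many genes of oxidation, had the largest fold change in FD. Its levels were 1.93, 1.96 and 2.51 TPM in Mock, 37.0, 27.6 and 34.6 in FD, 27.0, 29.0 and 34.4 in FDI, and 27.0, 31.7 and 33.1 in FDMn. All 9 treated libraries lay far above Mock, and the 3 treated groups overlapped each other. The mean rose 15.5-fold in FD (log2 change 3.44 ± 0.13 SE, adjusted p = 1.18e-09). Against FD, the log2 change was −0.13 with insulin (95% interval −0.41 to 0.16, adjusted p = 0.581) and −0.10 with manganese (−0.39 to 0.18, adjusted p = 0.66).

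Pdk4, a kinase that switches off pyruvate dehydrogenase and so spares glucose carbon when fat is burned, was the member that responded most to insulin. It stood at 6.12, 6.19 and 8.80 TPM in Mock and at 19.3, 20.7 and 16.4 in FD. With insulin the levels were 6.09, 7.45 and 10.0 TPM, and with manganese 8.68, 12.2 and 8.82. Every FD library lay above every other library, while the FDI and FDMn values overlapped. Pdk4 rose 2.67-fold in FD (log2 change 1.31 ± 0.18 SE, adjusted p = 0.00013). With insulin also present it was 0.417 times the FD mean (−1.18 ± 0.18, adjusted p = 0.00124), and with manganese 0.526 times (−0.87 ± 0.18, adjusted p = 0.00812). The difference between FDMn and FDI was 0.31 (95% interval −0.09 to 0.71, adjusted p = 0.286).

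Acot1, a cytosolic thioesterase that splits acyl-CoA, was the lowest of the members. It was listed at 0, 0 and 0.816 TPM in Mock, at 2.06, 1.79 and 1.06 in FD, at 1.14, 2.36 and 0.898 in FDI, and at 1.58, 2.56 and 1.57 in FDMn. No FD library overlapped Mock, and the 3 treated groups overlapped. Acot1 reached 1 TPM in no Mock library and passed the filter only through the treated ones, so its difference of 1.09 on the log2(TPM + 1) scale between FD and Mock is given as a description. That value moved from 0.33 to 3.00 over the alternatives. Its neighbour and near copy Acot2, the mitochondrial form, went the other way, with means of 15.6 TPM in Mock and 5.22 in FD (log2 change −1.41 ± 0.10, adjusted p = 5.07e-07). Reads of such copies may be shared between them, so both values are uncertain.

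Vnn1, vanin-1, a pantetheinase of coenzyme A turnover and a familiar PPAR alpha target, had the largest difference between FDMn and FDI among the 32. Its levels were 12.2, 12.2 and 11.7 TPM in Mock, 9.45, 9.56 and 9.77 in FD, 10.5, 9.91 and 9.26 in FDI, and 4.45, 5.16 and 6.02 in FDMn. The FDMn libraries lay below all others, and FD and FDI overlapped. Vnn1 fell to 0.543 times the FD mean with manganese (log2 change −0.78 ± 0.10 SE, adjusted p = 0.000361) and was 0.526 times the FDI mean (−0.82 ± 0.10, adjusted p = 0.000188). In FD against Mock it fell by 0.30 (adjusted p = 0.0309), a call that ended without any single library of either group and under both other scalings.

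**Figure D2:**
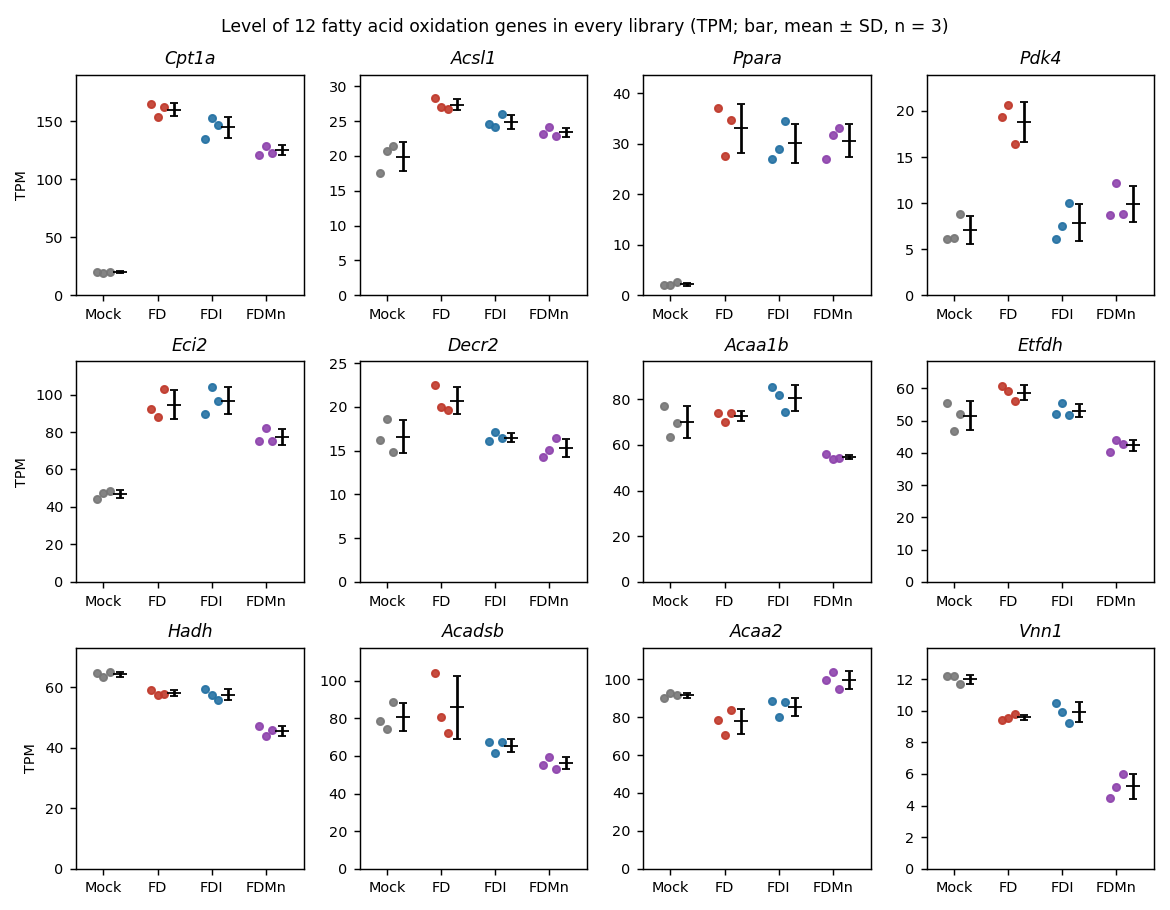
Dots are the TPM of 12 of the genes in each library of Mock, FD, FDI and FDMn, with the mean and SD of 3 beside them, on axes that start at 0. Cpt1a and Ppara are low in Mock and high in the 3 other groups, Pdk4 is high in FD alone, and Vnn1, Hadh, Etfdh and Acaa1b have their lowest dots in FDMn.

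At the entry step, Cpt1a, the outer membrane carnitine palmitoyltransferase that sets the pace of fatty acid entry and is inhibited by malonyl-CoA, changed most. It was at 20.0, 19.1 and 20.3 TPM in Mock, 165, 154 and 162 in FD, 135, 153 and 147 in FDI, and 121, 129 and 123 in FDMn. The groups formed 4 steps with no overlap between neighbours, Mock lowest, then FDMn, FDI and FD. Cpt1a rose 8.08-fold in FD (log2 change 2.95 ± 0.06 SE, adjusted p = 4.36e-12). Manganese lowered it to 0.778 times the FD mean (−0.36 ± 0.06, adjusted p = 0.00185), and the insulin difference of −0.14 did not pass (95% interval −0.27 to −0.01, adjusted p = 0.139). FDMn was below FDI by 0.22 (adjusted p = 0.0265), a call lost without FDMn replicates 1 or 3 or FDI replicates 2 or 3, and under both other scalings.

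Bases upstream of a transcription start of Cpt1a and Pdk4, an entry and a linked enzyme that both rose in FD and fell with manganese, are shown with the matches of a motif search. Both are read 5′ to 3′ on the strand of the gene in GRCm38.p6, and capitals mark matches on either strand. For Cpt1a (chr19:3323051-3323284, + strand) the capitals are 1 nuclear receptor motif AGGTCA and 2 GC boxes GGGCGG, all on the opposite strand. The annotations differ here. The RefSeq start is at 3323301, while the GENCODE gene begins upstream at 3322334. The printed bases overlap no GENCODE exon of Cpt1a. They lie between an exon end at 3322698 and an exon start at 3323285, just after them. Whether a GENCODE transcript begins at 3323285 was not examined. For Pdk4 (chr6:5496310-5496528, − strand) they are 1 CCAAT box on the opposite strand.
Cpt1a upstream: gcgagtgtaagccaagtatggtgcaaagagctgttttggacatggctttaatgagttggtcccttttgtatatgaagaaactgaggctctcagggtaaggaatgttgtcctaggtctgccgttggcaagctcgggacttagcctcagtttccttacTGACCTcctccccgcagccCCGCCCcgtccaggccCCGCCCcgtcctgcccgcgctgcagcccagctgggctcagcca
Pdk4 upstream: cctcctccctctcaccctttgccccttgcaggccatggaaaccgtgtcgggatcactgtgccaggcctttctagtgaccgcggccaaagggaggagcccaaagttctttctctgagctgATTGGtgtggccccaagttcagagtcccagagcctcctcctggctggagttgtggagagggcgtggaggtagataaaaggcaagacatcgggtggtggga

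Acsl1, the main long-chain acyl-CoA synthetase of liver, was at 17.6, 20.7 and 21.4 TPM in Mock, 28.3, 27.1 and 26.8 in FD, 24.6, 24.1 and 26.0 in FDI, and 23.2, 24.2 and 22.9 in FDMn. The FD libraries lay above all others, and FDI and FDMn overlapped. Acsl1 rose 1.38-fold in FD (log2 change 0.45 ± 0.08 SE, adjusted p = 0.000692). Neither insulin (−0.13, adjusted p = 0.293) nor manganese (−0.22, adjusted p = 0.086) passed the test against FD. Cpt2, the inner membrane transferase that re-forms acyl-CoA in the matrix, was at 21.0, 19.1 and 17.7 TPM in Mock and at 27.1, 20.8 and 24.1 in FD. In FDI it was at 18.4, 16.8 and 20.9 TPM and in FDMn at 25.2, 23.5 and 29.2, with no overlap between these last groups. Cpt2 was 1.39-fold higher in FDMn than in FDI (log2 change 0.45 ± 0.12, adjusted p = 0.0193), a call lost without FDMn replicate 3, FDI replicate 1 or FDI replicate 2. Crat, the carnitine acetyltransferase, ranged from 19.4 to 27.5 TPM, and Slc25a20, the carnitine-acylcarnitine carrier, from 10.0 to 17.9, and neither passed any of the 4 tests.

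In the mitochondrial cycle, with TPM as deposited, 1 of 15 genes rose in FD (Echs1) and 2 fell (Hadh and Acaa2), where 11.2% and 29.9% of all genes did so. None passed with insulin, where 1 was lower under median-of-ratios scaling and 2 under quantile normalization. With manganese 5 fell and 1 rose under all 3 scalings, where 7.90% and 7.22% of all genes did so. The acyl-CoA dehydrogenases, which catalyse the opening step for chains of different lengths, mostly did not pass. Acadl ranged from 89.9 to 116 TPM over the 12 libraries and Acadvl from 55.4 to 71.3. Acadm was the most abundant member on the TPM scale, from 241 to 431, and no test of it passed. Its FD libraries were spread widely, at 431, 352 and 255 TPM, and albumin in the same libraries was at 32589, 30581 and 22624 TPM. Whether the spread of Acadm goes with that of albumin was not tested.

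Acadsb, the dehydrogenase for short branched chains from isoleucine, was at 78.5, 74.4 and 88.8 TPM in Mock, 104, 80.8 and 72.1 in FD, 67.5, 61.4 and 67.3 in FDI, and 55.2, 59.5 and 53.2 in FDMn. All FDMn libraries lay below all others, and all FDI libraries lay below FD. Acadsb fell to 0.653 times the FD mean with manganese (log2 change −0.59 ± 0.12 SE, adjusted p = 0.00513), and with insulin the difference of −0.37 did not pass (95% interval −0.62 to −0.12, adjusted p = 0.052). Acads, the short-chain dehydrogenase, was at 46.5, 50.3 and 53.5 TPM in Mock, 39.8, 36.2 and 48.3 in FD, 54.9, 51.2 and 46.3 in FDI, and 35.8, 39.6 and 41.5 in FDMn. The 1 comparison of Acads that passed was FDMn with FDI, with FDMn at 0.767 times FDI (−0.37 ± 0.11, adjusted p = 0.0299) and no overlap between them. That call was lost in 7 of 14 alternatives, among them leaving out FDMn replicates 1 or 2 or FDI replicates 1 or 2.

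Hadh, the 3-hydroxyacyl-CoA dehydrogenase for short and medium chains, was lower with manganese than in either other treated group. Its levels were 64.6, 63.4 and 65.0 TPM in Mock, 59.2, 57.3 and 57.6 in FD, 59.5, 57.3 and 55.8 in FDI, and 47.0, 43.8 and 45.7 in FDMn. The FDMn values lay below all others, and FD and FDI overlapped. Hadh fell to 0.785 times FD (log2 change −0.34 ± 0.05 SE, adjusted p = 0.00116) and was 0.791 times FDI (−0.33 ± 0.05, adjusted p = 0.00124). Its fall of 0.15 in FD against Mock (adjusted p = 0.044) equalled that of the median gene. That call was lost without any single library of either group, under quantile normalization, with a replicate block and with only the compared groups fitted. The difference turned to 0.02 (adjusted p = 0.853) under median-of-ratios scaling.

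Hadha and Hadhb encode the alpha and beta subunits of the trifunctional protein, which carries out the last 3 steps for long chains at the inner membrane. The genes lie head to head on chromosome 5 of GRCm38, Hadha on the − strand (30118304 to 30155162) and Hadhb on the + strand (30155248 to 30184593), with 85 bases between their annotated starts. Hadha was at 76.2, 77.4 and 76.3 TPM in Mock, 81.6, 78.0 and 82.6 in FD, 78.2, 78.6 and 80.0 in FDI, and 64.7, 73.4 and 65.1 in FDMn. The FDMn libraries were the 3 lowest, and Hadha fell to 0.839 times FD (log2 change −0.25 ± 0.06 SE, adjusted p = 0.013) and was 0.858 times FDI (−0.22 ± 0.06, adjusted p = 0.0219). The call against FD was lost without FDMn replicate 1 or 3, and with only the compared groups fitted. The call against FDI was lost without those FDMn replicates or FDI replicates 2 or 3, and under quantile normalization. Hadhb was at 67.5, 74.5 and 56.7 TPM in FD and 48.4, 58.9 and 51.8 in FDMn, which overlapped, and its difference of −0.31 had an interval of −0.56 to −0.06 and did not pass (adjusted p = 0.0891). The ratio of Hadha to Hadhb was 1.28 ± 0.142 (SD, n = 3) in Mock, 1.24 ± 0.206 in FD, 1.36 ± 0.119 in FDI and 1.28 ± 0.0491 in FDMn, and the groups overlapped.

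The shared gap between the starts and the bases before the start of Hadh are shown because Hadha and Hadh fell with manganese, although Hadhb, which shares the gap, did not pass that test. The GC boxes in both windows are a common feature, found in 64.9% of promoters of tested genes. The gap (chr5:30155163-30155247, written on the + strand) has 2 GC boxes on that strand. The Hadh window (chr3:131272102-131272351, − strand) has 1 CCAAT box on the strand of the gene and 2 GC boxes, 1 on each strand. Capitals mark these matches, and the build is GRCm38.p6.
Hadha-Hadhb gap: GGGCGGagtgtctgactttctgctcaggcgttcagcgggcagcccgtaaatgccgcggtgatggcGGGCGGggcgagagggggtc
Hadh upstream: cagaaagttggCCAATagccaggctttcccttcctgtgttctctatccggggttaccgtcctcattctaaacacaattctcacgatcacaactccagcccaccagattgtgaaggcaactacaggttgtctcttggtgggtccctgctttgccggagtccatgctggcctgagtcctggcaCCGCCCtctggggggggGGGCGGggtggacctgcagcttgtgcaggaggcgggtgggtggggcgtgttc

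Echs1, the short-chain enoyl-CoA hydratase, rose in FD, the 1 mitochondrial gene to do so with TPM as deposited. It was at 40.2, 41.2 and 41.2 TPM in Mock, 53.3, 47.5 and 53.4 in FD, 54.2, 53.7 and 52.2 in FDI, and 48.4, 48.3 and 45.9 in FDMn. Mock was below all treated libraries, and the rise was 1.26-fold (log2 change 0.32 ± 0.06 SE, adjusted p = 0.00115). Acaa2, the thiolase that closes the mitochondrial cycle, was the 1 member that rose with manganese. Its levels were 89.9, 92.6 and 91.6 TPM in Mock, 78.7, 70.5 and 83.9 in FD, 88.6, 80.0 and 87.9 in FDI, and 99.4, 104 and 94.8 in FDMn. The FDMn libraries were the 3 highest of 12 and the FD libraries lay below Mock. Acaa2 rose 1.28-fold with manganese (0.35 ± 0.07, adjusted p = 0.00537). Its fall of 0.23 in FD (adjusted p = 0.0183) was lost without FD replicate 2 or Mock replicate 2. It was also lost under both other scalings and with only the compared groups fitted.

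Decr1, the 2,4-dienoyl-CoA reductase needed for unsaturated chains, was at 23.8, 21.4 and 22.9 TPM in Mock, 21.4, 21.7 and 19.5 in FD, 20.2, 19.9 and 19.4 in FDI, and 17.3, 18.3 and 16.3 in FDMn. The FDMn libraries were the 3 lowest. Decr1 fell to 0.828 times FD (log2 change −0.26 ± 0.07 SE, adjusted p = 0.0359). This call was lost without FDMn replicate 1 or 3 or FD replicate 1 or 2. It was also lost with a replicate block and with only the compared groups fitted. Eci1, the mitochondrial enoyl-CoA isomerase, ranged from 30.8 to 43.3 TPM and passed no test.

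The electrons of each cycle pass through the electron transfer flavoprotein, made of Etfa and Etfb, to its oxidoreductase Etfdh and on to ubiquinone. Etfa ranged from 103 to 137 TPM and Etfb from 67.7 to 115, and neither passed a test. Etfdh was at 55.6, 46.7 and 52.1 TPM in Mock, 60.8, 59.3 and 56.1 in FD, 52.1, 55.4 and 51.8 in FDI, and 40.4, 44.0 and 42.6 in FDMn. All FDMn libraries lay below all others, and FD lay above FDI without overlap. Etfdh fell to 0.721 times FD with manganese (log2 change −0.46 ± 0.07 SE, adjusted p = 0.00115) and was 0.797 times FDI (−0.32 ± 0.07, adjusted p = 0.00933). Both of these calls held in all 14 alternatives.

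In FDMn against FD the peroxisomal genes had the highest share of calls of the 5 classes, with 4 of 6 lower and none higher. Of all genes tested, 7.90% were lower and 7.22% higher there. Without FDMn replicate 1 the calls of Eci2, Decr2 and Hsd17b4 were lost, and that of Acaa1b held. Against FDI, 2 of 6 were lower (1 under quantile normalization) and none higher, beside 11.9% and 5.68% of all genes tested. Eci2, an enoyl-CoA isomerase found in peroxisomes and also in mitochondria, was at 44.3, 47.6 and 48.6 TPM in Mock, 92.2, 88.2 and 103 in FD, 89.5, 104 and 96.5 in FDI, and 75.1, 82.1 and 75.0 in FDMn. FDMn lay between Mock and the other treated groups with no overlap, while FD and FDI overlapped. Eci2 rose 2.02-fold in FD (log2 change 1.00 ± 0.08 SE, adjusted p = 7.59e-07). With manganese it was 0.819 times FD (−0.28 ± 0.08, adjusted p = 0.027) and 0.801 times FDI (−0.31 ± 0.08, adjusted p = 0.0151). The first of these was lost without FDMn replicates 1 or 3 or FD replicates 1 or 3, and with only the compared groups fitted. The second was lost without FDMn replicates 1 or 3 or FDI replicate 2, and under quantile normalization.

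Decr2, the peroxisomal dienoyl-CoA reductase, was at 16.2, 18.6 and 14.9 TPM in Mock, 22.5, 20.0 and 19.6 in FD, 16.1, 17.1 and 16.4 in FDI, and 14.3, 15.1 and 16.4 in FDMn. FD was the highest group without overlap, and the other 3 groups overlapped. Decr2 rose 1.25-fold in FD (log2 change 0.31 ± 0.09 SE, adjusted p = 0.0184), fell by 0.31 with insulin (adjusted p = 0.0457) and fell by 0.42 with manganese (adjusted p = 0.0106). The insulin call was lost in 8 of 14 alternatives, including leaving out any FDI library or FD replicate 1 or 2. The FD call was lost without FD replicate 1 or Mock replicate 3 and with only the compared groups fitted, and the manganese call without FDMn replicate 1.

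The peroxisomal thiolase is encoded in the mouse by a pair of near copies on chromosome 9. Acaa1b was at 77.1, 63.4 and 69.7 TPM in Mock, 73.9, 70.2 and 73.8 in FD, 85.4, 81.8 and 74.2 in FDI, and 55.9, 53.9 and 54.4 in FDMn. The FDMn libraries were the 3 lowest and varied little among themselves. Acaa1b fell to 0.753 times FD (log2 change −0.40 ± 0.08 SE, adjusted p = 0.00381) and was 0.680 times FDI (−0.55 ± 0.08, adjusted p = 0.000435), and both calls held in all 14 alternatives. Acaa1a ranged from 34.4 to 46.2 TPM and passed no test, with a manganese difference of −0.10 (95% interval −0.30 to 0.10). The ratio of Acaa1a to Acaa1b was 0.549 ± 0.0301 (SD, n = 3) in Mock, 0.565 ± 0.0304 in FD, 0.513 ± 0.0425 in FDI and 0.699 ± 0.0373 in FDMn, the last without overlap with any other group. Because the copies share sequence, how reads were divided between them is uncertain.

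Hsd17b4, the multifunctional enzyme of branched-chain and bile acid precursor oxidation, was at 80.5, 69.7 and 74.8 TPM in Mock, 77.9, 75.9 and 76.3 in FD, 67.0, 64.5 and 69.8 in FDI, and 61.5, 61.9 and 66.0 in FDMn. Both FDI and FDMn lay below FD without overlap. Hsd17b4 fell to 0.823 times FD with manganese (log2 change −0.28 ± 0.06 SE, adjusted p = 0.0119), a call lost without FDMn replicate 1, and the insulin difference of −0.19 did not pass (adjusted p = 0.0633). Ehhadh, the bifunctional enzyme of straight-chain peroxisomal oxidation and a classic PPAR alpha target, stayed between 9.18 and 13.8 TPM in all libraries and passed no test.

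At the ketone step, Acat1, the mitochondrial acetoacetyl-CoA thiolase, was at 20.1, 19.2 and 15.4 TPM in Mock, 12.4, 11.3 and 11.2 in FD, 17.8, 13.6 and 13.4 in FDI, and 10.1, 11.1 and 12.6 in FDMn. Mock and FDI both lay above FD, and FD and FDMn overlapped. Acat1 fell to 0.637 times Mock in FD (log2 change −0.60 ± 0.13 SE, adjusted p = 0.0027), and this call held in all 14 alternatives. The insulin difference of 0.33 did not pass (95% interval 0.04 to 0.61, adjusted p = 0.116). Bdh1, which reduces acetoacetate to 3-hydroxybutyrate, ranged from 5.13 to 11.1 TPM, with means of 9.69 in Mock and 6.87 in FD (log2 change −0.46, adjusted p = 0.0514).

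Summed over each class, which is a description and not a test, the entry genes stood apart. They totalled 95.2 ± 0.734 TPM (SD, n = 3) in Mock, 249 ± 15.6 in FD, 225 ± 8.63 in FDI and 209 ± 5.87 in FDMn. Cpt1a made up most of this sum in every treated library. Peroxisomal genes totalled 257 ± 13.5 TPM in Mock, 318 ± 13.5 in FD, 315 ± 5.34 in FDI and 262 ± 4.33 in FDMn. The FDMn sums of 258 to 266 fell within the Mock range of 243 to 269.5 and below the FD range of 303 to 328. The single genes differed. Eci2 averaged 46.9 TPM in Mock, 94.6 in FD and 77.4 in FDMn, so it stayed above Mock. In the same order Acaa1b averaged 70.1, 72.6 and 54.7 TPM and Hsd17b4 75.0, 76.7 and 63.1, both below Mock in FDMn. Decr2 averaged 16.6, 20.7 and 15.3 TPM, Acaa1a 38.4, 41.1 and 38.2, and Ehhadh 10.5, 12.6 and 13.7. Mitochondrial genes totalled 1276 ± 59.4, 1311 ± 113, 1186 ± 34.9 and 1168 ± 40.1 TPM in the same order, and FDMn lay below every FD and Mock library while overlapping FDI. The ketone pair totalled 28.0 ± 2.92 TPM in Mock and 18.5 ± 2.67 in FD, with no overlap. FDI stood at 21.6 ± 1.90 and FDMn at 17.0 ± 0.731.

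**Figure D3:**
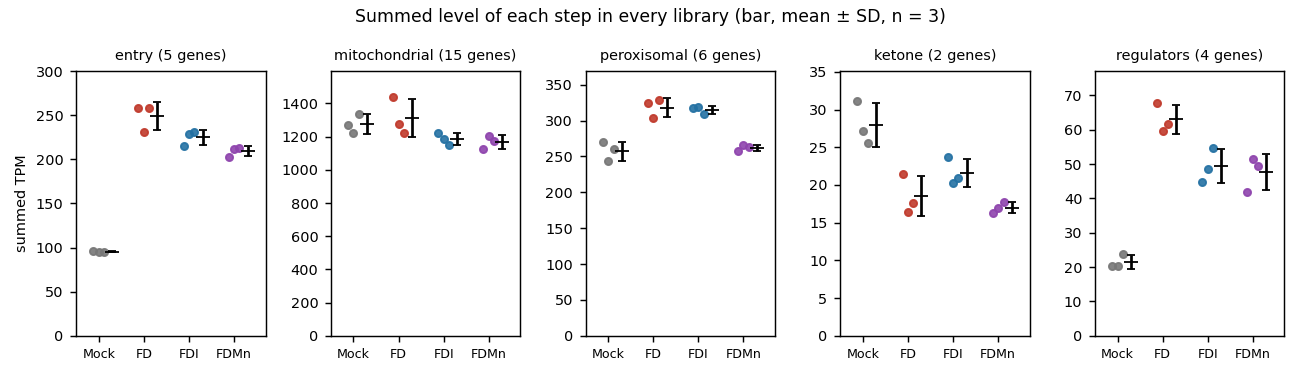
Dots are the summed TPM of the genes of each class in each library, with the mean and SD of 3 libraries beside them, on axes that start at 0. The entry sum is near 95.2 TPM in Mock and 203 or higher in every treated library, and the peroxisomal sum is 318 in FD and 262 in FDMn.

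The promoters of the members were searched for 8 short motifs on both strands, in windows of 300 bases with 250 before and 50 after the RefSeq start. Of the 32, 26 had an entry, and Crat, Acaa2, Decr1, Hsd17b4, Acat1 and Vnn1 did not. The GC box GGGCGG was found in 20 of 26 (76.9%), against 64.9% of the 8817 tested genes with an entry and 35.7% of all 32851 promoters. The CCAAT box was in 11 of 26 (42.3%, against 39.0% and 37.4%), and the core of a cAMP response element, TGACG, in 6 of 26 (23.1%, against 32.4% and 20.8%). The nuclear receptor motif AGGTCA was in 4 (Cpt1a, Acadm, Acadvl and Echs1), or 15.4% against 13.0% and 16.3%. Its direct repeat AGGTCANAGGTCA, the arrangement that PPAR alpha prefers, and the extended form TCAAGGTCA both contain it. Neither was found in any member window, and they occur in 0.0396% and 0.423% of all promoters. The FOXO motif TGTTTAC (3.65% of all promoters) and the E-box CACGTG (7.15%) were in none of the 26. Of the 12 genes that fell with manganese, 9 had an entry, of which 7 held a GC box and 6 a CCAAT box. These are matches of letters in short windows, and no match says only that the letters are not there.

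Genes of the same pathways outside the 32 gave a mixed picture. The counts are with TPM as deposited, beside all-gene shares higher and lower of 11.2% and 29.9% in FD, 10.2% and 4.35% with insulin, and 7.22% and 7.90% with manganese. Among 17 tested genes of fatty acid uptake, activation and carnitine handling, none rose and 4 fell in FD, none passed with insulin, and 1 rose and 3 fell with manganese. In FD, 2 rose and 4 fell under both other scalings. Slc27a2, the very long chain acyl-CoA synthetase, was at 44.2, 44.3 and 41.5 TPM in FD, 44.1, 41.2 and 39.9 in FDI, and 24.2, 24.1 and 23.4 in FDMn. It fell with manganese to 0.552 times FD (log2 change −0.83 ± 0.08 SE, adjusted p = 5.79e-05), with no overlap. Crot, the peroxisomal carnitine octanoyltransferase, fell in FD to 0.707 times Mock (−0.49 ± 0.07, adjusted p = 0.000103) and was 0.735 times FD with manganese (−0.44 ± 0.07, adjusted p = 0.00115). Acsl3, a synthetase of lipid droplets, fell in FD to 0.375 times Mock (−1.40 ± 0.19, adjusted p = 7.74e-05).

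Of 20 other peroxisomal genes, 7 rose and 3 fell in FD, 1 rose and 1 fell with insulin, and 1 rose and 6 fell with manganese. The FD counts were 9 and 0 under median-of-ratios scaling and 8 and 2 under quantile normalization. Pex13, part of the peroxisomal import machinery, rose 2.30-fold in FD and fell by 0.47 with manganese (adjusted p = 0.00499). Acox2, the oxidase for branched chains and bile acid precursors, rose in both comparisons, 1.94-fold in FD over Mock and 1.48-fold in FDMn over FD (adjusted p = 0.00144).

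Other mitochondrial acyl-CoA genes, 18 in number, split into 2 that rose and 5 that fell in FD, but 3 rose and 2 fell under both other scalings. Insulin raised 2 and lowered 1 of them, and manganese raised 1 and lowered 3. Echdc2, an enoyl-CoA hydratase homologue, averaged 46.2 TPM in Mock, 79.2 in FD, 53.7 in FDI and 50.3 in FDMn. It rose by 0.77 ± 0.09 SE on the log2 scale in FD (adjusted p = 3.84e-05), fell by 0.56 with insulin (adjusted p = 0.00187) and fell by 0.65 with manganese (adjusted p = 0.000702). Acot2 moved the other way at each step, with means of 15.6, 5.22, 10.6 and 8.79 TPM, and rose with insulin (0.90, adjusted p = 0.000135) and with manganese (0.66, adjusted p = 0.00131). Acot9, a mitochondrial thioesterase, fell in FD by 0.37 (adjusted p = 0.00019) and rose with insulin by 0.19 (adjusted p = 0.0418).

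Of 24 tested PPAR alpha targets outside the members, 8 rose and 4 fell in FD. These counts were 9 and 4 with median-of-ratios scaling, and 10 and 4 with quantile normalization. With insulin 6 rose and 2 fell, and with manganese 6 rose and 6 fell. The insulin rises include Fgf21, with means of 0.121 TPM in FD and 4.45 in FDI. Fgf21 passed the filter on low values only through FDI libraries, so its difference was built into the choice. Plin4, a lipid droplet coat protein, was at 1.74, 1.44 and 1.80 TPM in Mock and 24.8, 21.6 and 23.6 in FD, a 14.1-fold rise (log2 change 3.19 ± 0.10 SE, adjusted p = 1.47e-10). It fell with insulin by 0.61 (adjusted p = 0.00132) and with manganese by 0.32 (adjusted p = 0.0436). Plin2, the main droplet coat protein of hepatocytes, did the reverse, with 533, 543 and 515 TPM in Mock, 155, 177 and 221 in FD, 256, 263 and 262 in FDI, and 385, 344 and 359 in FDMn. The 4 groups of Plin2 values did not overlap, and manganese raised it by 0.99 ± 0.10 (adjusted p = 5.79e-05).

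Among 21 nuclear receptors and cofactors, 5 rose and 5 fell in FD, 2 rose and 3 fell with insulin, and 2 fell with manganese. Those that rose in FD include Ppargc1a, whose difference was built into the choice by the filter. The split in FD, even only with Ppargc1a counted, became 8 that rose and 2 that fell under both other scalings. Ppargc1a, the coactivator PGC-1 alpha, was at 0.834, 0.793 and 0.747 TPM in Mock, 23.7, 18.0 and 18.8 in FD, 16.7, 19.3 and 25.2 in FDI, and 13.3, 15.7 and 14.4 in FDMn. Its FD mean was 25.5 times that of Mock (log2 change 3.55), given as a description because it passed the filter only through treated libraries. FDMn lay below FD without overlap, yet the difference of −0.44 missed the threshold (adjusted p = 0.0566), and against FDI the difference of −0.45 passed it narrowly (adjusted p = 0.0492). Lpin1, a phosphatidate phosphatase and nuclear coactivator, rose 5.14-fold in FD and fell with insulin to 0.388 times FD (−1.29 ± 0.13, adjusted p = 4.88e-05) and with manganese to 0.694 times (−0.50 ± 0.13, adjusted p = 0.0219). Foxo1, a transcription factor that insulin signalling inactivates, rose 4.25-fold in FD (adjusted p = 7.73e-09). Its differences from FD were −0.21 with insulin (adjusted p = 0.144) and −0.17 with manganese (adjusted p = 0.228).

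The malonyl-CoA and AMPK list of 11 had 3 genes that rose in FD, Prkab2 (1.84-fold), the malonyl-CoA decarboxylase Mlycd (1.38-fold) and the mitochondrial acetyl-CoA carboxylase Acacb (1.83-fold), and 2 that fell (1 under both other scalings). With insulin 1 gene of the list rose (none under both other scalings), and with manganese none passed the test. Of 13 genes of the pyruvate dehydrogenase complex, its kinases, phosphatases and carriers, 4 rose and 1 fell in FD (7 and 1 with median-of-ratios scaling, 6 and 1 with quantile normalization), and 2 fell with insulin and 2 with manganese. Pdk2, a sister kinase of Pdk4, averaged 27.1 TPM in Mock, 49.8 in FD, 36.8 in FDI and 34.6 in FDMn. It rose in FD (0.84 ± 0.12, adjusted p = 0.00012), fell by 0.42 with insulin (adjusted p = 0.0314) and fell by 0.50 with manganese (adjusted p = 0.0141). Pdk1 rose 1.80-fold in FD (adjusted p = 5.75e-05), and the phosphatase Pdp1, which opposes the kinases, fell to 0.411 times Mock (adjusted p = 0.00103).

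In the list of ketone synthesis, use and export, 2 of 12 genes rose and 1 fell in FD (none fell with median-of-ratios scaling), 1 rose with insulin and 1 fell with manganese. Slc16a7, a monocarboxylate carrier, rose 4.52-fold in FD (log2 change 1.65 ± 0.16 SE, adjusted p = 4.86e-06) and fell by 0.55 with manganese (adjusted p = 0.0335). Slc16a1, another carrier of the family, rose with insulin by 0.35 (adjusted p = 0.00795) and was lower in FDMn than in FDI by the same amount (−0.35, adjusted p = 0.00673). Hmgcs1, the cytosolic synthase of the cholesterol pathway, fell in FD by 0.36 (adjusted p = 0.00393).

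**Figure D4:**
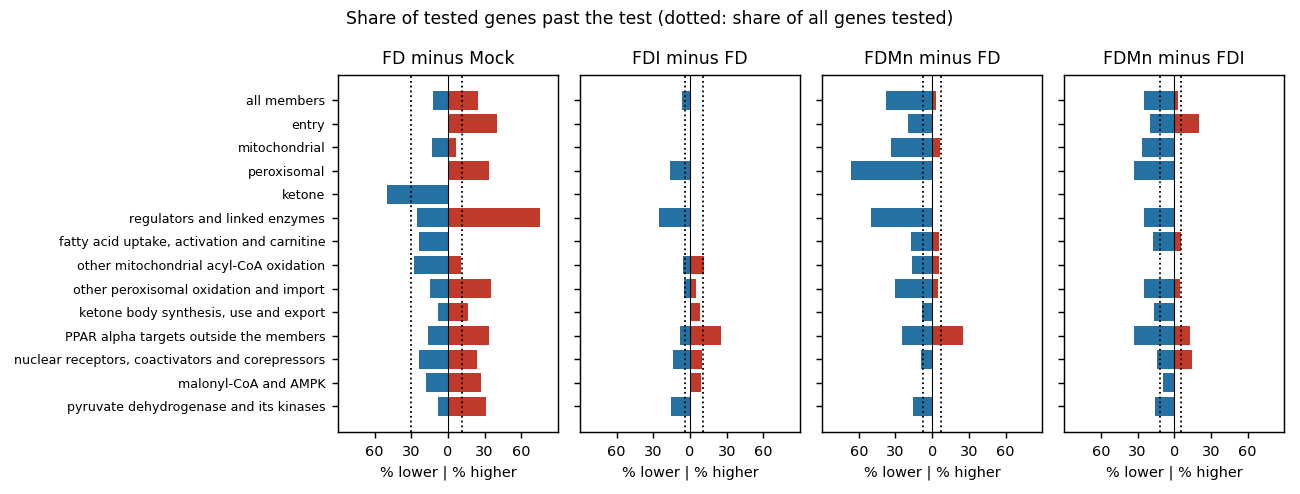
Bars give the percent of tested genes lower (blue, left) and higher (red, right) in each comparison for the 32 members, their 5 classes and 8 pathway lists, and dotted lines give the same shares over all genes tested. In FDMn against FD the peroxisomal bar on the left is the longest.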

How the data were processed

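Members, gene lists and tests were chosen with earlier results of these data known. The authors deposited 1 table of gene-level TPM values for 12 libraries. The tools named per the submitters' processing notes are kallisto 0.44.0, the mouse build GRCm38.p6 and DESeq2, whose role is not stated. Annotation release, filters, strand use and gene-level summing are not given in the sources, so overlapping or antisense genes cannot be told apart. TPM holds no counts, so no count test, interval or floor was computed, and a 0 means only that a gene is listed at 0.

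From the deposited TPM, log2(TPM + 1) was fitted with limma 3.58.1 (R 4.3.3), with 1 term per group over all 12 libraries and an intensity trend, for genes reaching 1 TPM in 3 or more libraries. Two-sided p-values were adjusted over 11544 genes by the Benjamini-Hochberg method, with a threshold of 0.05. Log2 changes are on the log2(TPM + 1) scale, which understates low genes, and folds are ratios of mean TPM. The fit was tested on simulated data. Values in every library are given for members past the test in at least 1 comparison. Up to 3 genes are named per pathway list, those with the smallest adjusted p in any comparison. Fgf21 is named besides because of the filter. Some results under that rule are not reported here. Alternatives were pseudocounts of 0.1 and 5, no filter or a filter of 5 TPM, 2 other scalings, a fit of only the compared groups, a replicate block, and leaving out each library. Groups and replicate numbers came from the sample titles. Gene positions came from GENCODE M21 (GRCm38), and promoter sequences from RefSeq (GRCm38.p6).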

Additional observations from a re-analysis of the deposited data

How the results depend on the processing

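The count of members lower in FDMn than in FD was 12 and ranged from 7 to 13 when 1 library was left out, with 1 member higher throughout. With median-of-ratios scaling, the members in FD against Mock numbered 17 higher and 1 lower, members lower in FDI than in FD 6, and members higher in FDMn than in FDI 2. With quantile normalization, members lower in FD than in Mock numbered 1, lower in FDI than in FD 6, and higher and lower in FDMn than in FDI 2 and 4. With only the compared groups fitted, 2 were lower in FD than in Mock, 1 was lower in FDI than in FD, and 3 were higher in FDMn than in FDI. Without a filter, 1 was lower in FDI than in FD, and with the stricter filter 2 were higher in FDMn than in FDI. The cause was not tested. Leaving out 1 library gave 7 to 11 higher and 1 to 3 lower in FD against Mock, 0 to 1 higher and 1 to 4 lower in FDI against FD, and 0 to 1 higher and 4 to 7 lower in FDMn against FDI. In FD against Mock the lower count was 1 without FD replicate 2 and 2 without any one Mock replicate. For FDI against FD it was 4 without FD replicate 3 and 1 without FD replicate 1 or any one FDI replicate. In FDMn against FD it was 7 without FDMn replicate 1. For FDMn against FDI it was 4 without FDMn replicate 1 or FDI replicate 2 and 5 without FDMn replicate 3, and Cpt2 was not called without FDMn replicate 3, FDI replicate 1 or FDI replicate 2. Hadh in FD against Mock reversed to 0.02 under median-of-ratios scaling. All-gene counts also moved: 2190 lower in FD than in Mock and 898 lower in FDMn than in FDI under quantile normalization, and 681 higher and 304 lower in FDI than in FD with only those groups fitted. Of the member calls, 8 of 12, 1 of 2, 8 of 13 and 4 of 9 held in all alternatives in which the gene was tested. The order is FD against Mock, FDI against FD, FDMn against FD and FDMn against FDI. The 8 of 12 include Acot1, whose difference from Mock was built into the choice by the filter. Acot1 is also in each count above of members higher in FD than in Mock. The filter of 5 TPM left it out, so it had 13 alternatives in place of 14. Libraries with the same replicate number did not deviate together (correlations across genes from −0.098 to 0.068 in the 4 comparisons). These values cannot tell whether such libraries shared a preparation, which the labels leave unsaid. With the replicate block, 1 member was lower in FDI than in FD, Decr2 no longer passing. TPM gives no read depth, so no limit of detection can be stated for low genes such as Acot1.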
